A study of Mus musculus with 170 samples.

Results

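Transcripts of 10 regulators of the early heart were examined in single cells of E9.5 mouse ventricles: the zinc finger factors Gata4, Gata5 and Gata6, their FOG cofactors Zfpm1 and Zfpm2, the MADS box factors Mef2a, Mef2c and Mef2d, the homeobox factor Nkx2-5 and the serum response factor Srf. They were chosen by name as core factors of the cardiac program, without a threshold on values but with earlier results of these data known. They make up 10 of the 40549 genes of the table. All 10 were present in it. Cells were picked by hand from dissociated ventricles of C57BL/6 embryos and sequenced by Smart-seq2, which primes full-length cDNA on poly(A) tails. Control embryos carried floxed Dgcr8 on both chromosomes and 1 copy of a membrane reporter at Rosa26 (mT/mG, red before and green after recombination), without Cre. Conditional knockout (cKO) embryos carried the same floxed alleles and reporter together with Mesp1Cre, so that Dgcr8, a subunit of the complex that cuts hairpins from primary microRNA transcripts, was deleted in mesoderm progenitors that use the Mesp1 promoter, in endothelial and other heart cells of that lineage as well as in cardiomyocytes (CMs). The labels name no embryo, so each genotype is 1 sample, and every difference below describes these cells without a test.

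These factors work together on the enhancers and promoters of muscle genes. GATA4 and NKX2-5 bind each other as well as DNA, and embryos that lack either one fail to form a normal heart. GATA5 and GATA6 recognise the same WGATAR motif as GATA4, where W is A or T and R is A or G. FOG proteins do not bind DNA at these sites but are held there by the GATA factor and often repress. MEF2 proteins and SRF share the MADS domain, bind A/T-rich sites (the MEF2 site and the CArG box), and are switched between repression and activation by partners, histone deacetylases for MEF2 and myocardin or its relatives for SRF. MicroRNAs of heart muscle are both encoded under control of SRF and MEF2 and known to limit regulators of this group.

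In the annotation of the mm10 assembly (GENCODE vM21, GRCm38), Gata4 lies on the minus strand of chromosome 14 (63198922 to 63271692), Gata5 on chromosome 2 (minus, 180325133 to 180334699) and Gata6 on chromosome 18 (plus, 11052064 to 11085635). Zfpm1 lies on chromosome 8 (plus, 122282141 to 122337251) and Zfpm2 on chromosome 15 (plus, 40655035 to 41104592). Mef2a lies on chromosome 7 (minus, 67231163 to 67372858), Mef2c on chromosome 13 (plus, 83504034 to 83667080) and Mef2d on chromosome 3 (plus, 88142372 to 88172086). Nkx2-5 (minus, 26838664 to 26845009) and Srf (minus, 46548329 to 46556175) both lie on chromosome 17. Some of these genes overlap others of the table. Zfpm1 overlaps Gm20388 on the same strand, and Gata5, Gata6, Mef2a, Mef2d and Srf each overlap a gene on the opposite strand (Gata5os, 1010001N08Rik, Lysmd4, 1700113A16Rik and Gm26904). Smart-seq2 does not mark strand, so the values of these 6 members may hold or lose some reads of their neighbours.

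The table held 74 control cells (35 in sequencing batch 1 and 39 in batch 2) and 69 cKO cells (35 and 34). Values are TPM, the abundance of a transcript relative to all transcripts of the cell, which are scaled for transcript length and to the total of each cell. Read totals are lost in this unit, and genes with TPM above 0 stand in for them here. They numbered 8820 in the median control cell (range 2063 to 14139) and 8456 in the median cKO cell (4244 to 11044). Clustering on 55 markers, none of them a member, gave a cardiomyocyte-like (CM-like) cluster of 102 cells with all 15 cardiomyocyte markers above the other cells. It held 33 control cells (24 in batch 1, 9 in batch 2) and all 69 cKO cells. The other control cells were 22 endothelial-like cells, 5 erythroid-like cells, 13 cells of an unnamed cluster with 5 of 6 epicardial and 10 of 14 mesenchymal markers, and 1 cell that clustered alone. Within the CM-like cluster 13 cells stood apart when the tree was divided into 6 clusters, 10 of them control and 3 cKO. The 10 control cells had a median of 5926 detected genes and a median mitochondrial share of 45.9% of TPM, against 9316 genes and 6.13% in the other 23. Differences between the genotypes are therefore given for the 102 cells and for the 89 cells without them, and levels and shares for the 89 cells unless stated (23 control, 17 in batch 1 and 6 in batch 2, and 66 cKO, 33 in each batch). Xist reached a TPM of 1 in 64 of 69 cKO and 3 of 74 control cells and the Y-linked Ddx3y in 0 and 49, so genotype and sex of the embryos cannot be told apart. Dgcr8 itself was at 1.69 ± 2.47 (SD across cells, n = 66) on the log2(TPM + 1) scale in cKO and 2.83 ± 2.94 (n = 23) in control, and values per gene do not resolve the deleted exon.

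The level of each member is given as the mean log2(TPM + 1), so that levels can be set beside each other per length of transcript. In the 23 control CM-like cells Nkx2-5 was the most abundant at 6.18 ± 1.94 (SD across cells). Mef2c followed at 4.90 ± 1.34 and Gata4 at 3.90 ± 2.49. The middle of the order held Mef2d at 3.34 ± 2.37, Mef2a at 3.12 ± 2.40, Gata6 at 2.08 ± 1.95 and Srf at 1.98 ± 2.04. Gata5 at 1.24 ± 1.47, Zfpm2 at 1.01 ± 1.55 and Zfpm1 at 0.06 ± 0.17 were lowest. Neighbours in this order lay closer together than the SD of either, except for Zfpm2 and Zfpm1, whose gap of 0.95 exceeded the SD of Zfpm1. In the 66 cKO CM-like cells Gata4 (5.44 ± 1.99) stood above Mef2c (4.92 ± 1.99), the reverse of control, and Gata5 (2.33 ± 2.46) stood above Srf (2.24 ± 2.11). None of the 9 gaps between neighbours exceeded the SDs there.

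**Figure D1:**
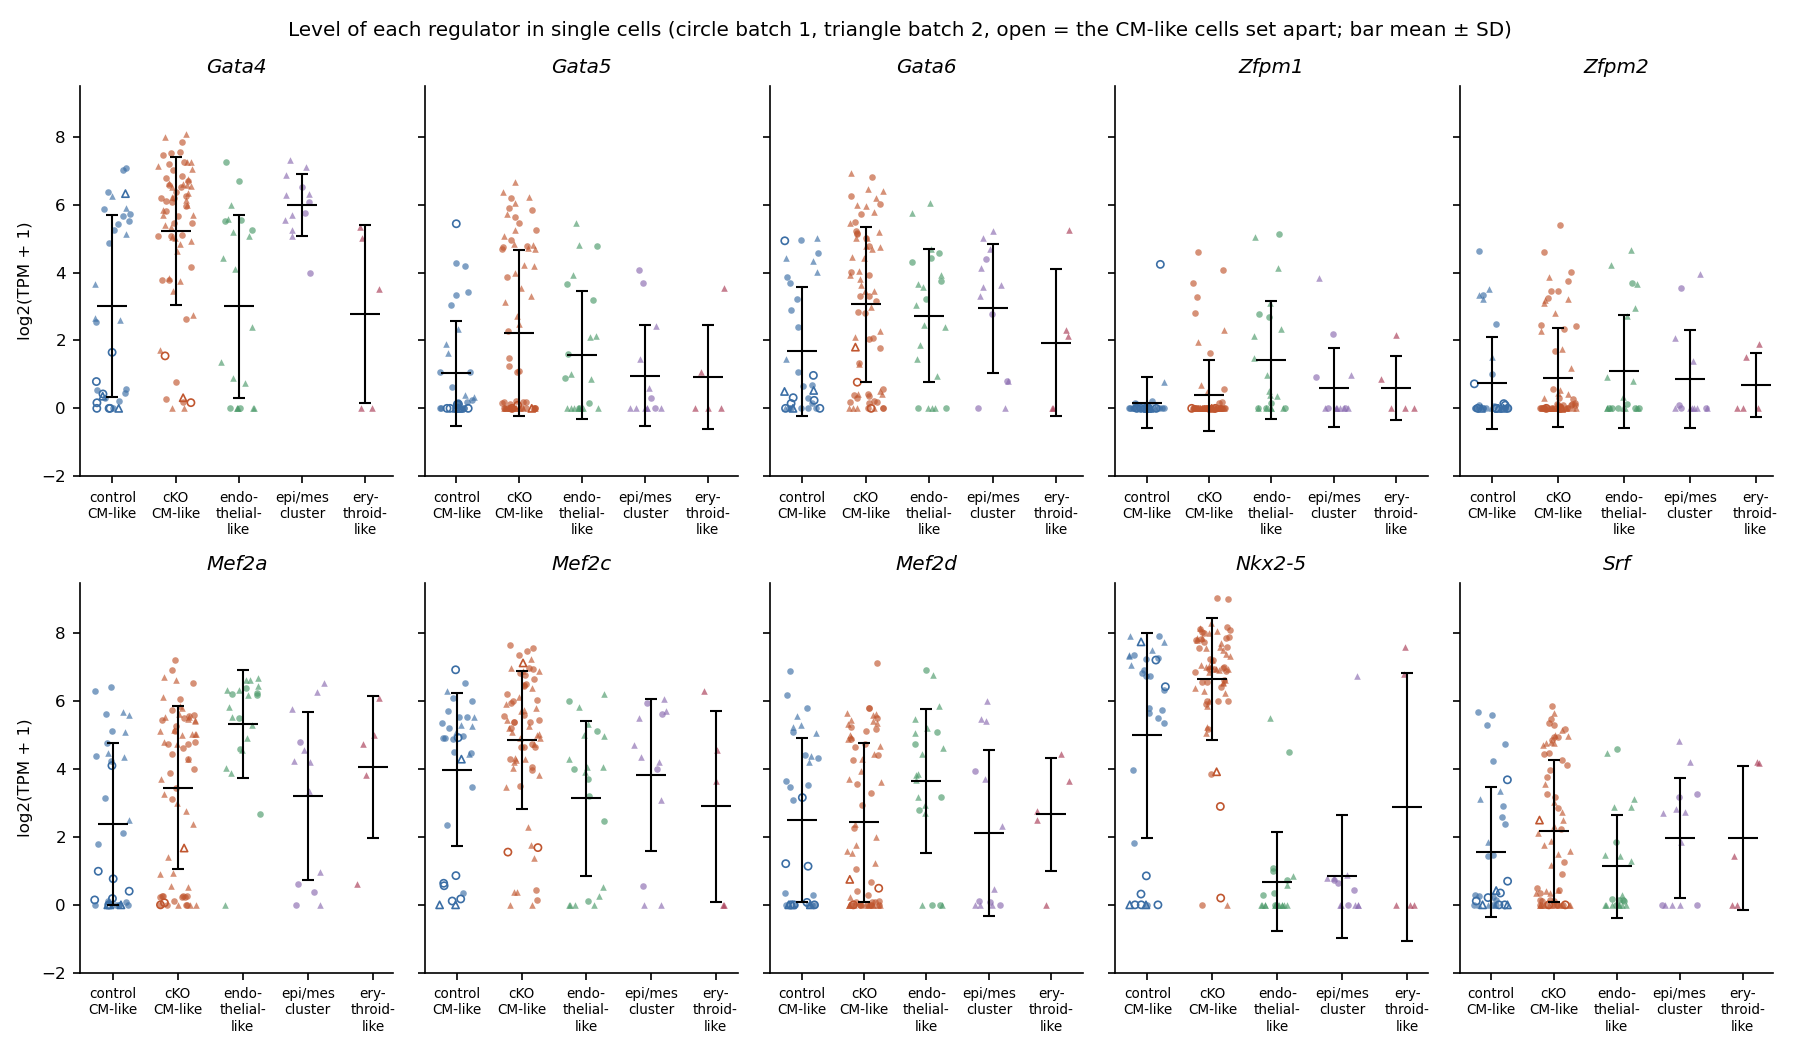
Each panel shows 1 regulator, with log2(TPM + 1) of single cells on the vertical axis and 5 groups of cells on the horizontal axis (33 control and 69 cKO CM-like cells, and 22 endothelial-like, 13 epicardial and mesenchymal and 5 erythroid-like control cells). Circles are batch 1, triangles batch 2 and open symbols the 13 CM-like cells set apart, and bars are the mean ± SD across cells. Most open symbols lie near 0 for most regulators, but Mef2c, Mef2d and Nkx2-5 each reach a TPM of 1 in 3 of 10 control cells set apart. Of the 3 cKO cells set apart, all reach it for Mef2c, 2 for Nkx2-5 and 0 for Mef2d. Nkx2-5 is high mainly in CM-like cells, and Gata4 is high in all 13 cells of the epicardial and mesenchymal cluster.

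Of the GATA factors, Gata4 had the largest difference between the genotypes with both batches together, while in batch 2 alone that of Gata5 was larger. Among the 89 cells its log2(TPM + 1) ranged from 0 to 7.09 with a median of 5.15 in control and from 0 to 8.08 with a median of 6.03 in cKO. The 2 distributions overlapped, and 11 of 66 cKO cells lay above the highest control cell. The mean was 1.54 higher in cKO, 2.90-fold on the scale of TPM + 1, and the difference was 1.78 in batch 1 and 0.99 in batch 2, while the SDs across cells were 2.49 and 1.99. With the 13 cells included it was 2.22 (2.47 and 1.56). Part of this lay in the number of cells with an appreciable level. Gata4 reached a TPM of 1 in 17 of 23 control cells, 73.9% (exact 95% CI 51.6 to 89.8, counting error only), and in 61 of 66 cKO cells, 92.4% (83.2 to 97.5). This held for batch 1, with 11 of 17 against 30 of 33 cells, while in batch 2 all 6 control cells reached it, as did 31 of 33 cKO cells. Among cells at or above a TPM of 1 the mean was 5.16 ± 1.45 (n = 17) in control and 5.86 ± 1.37 (n = 61) in cKO.

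Gata5, which is made mainly in endocardium and its cushions at this age, ranged from 0 to 4.29 with a median of 0.38 in the 23 control cells and from 0 to 6.66 with a median of 1.17 in the 66 cKO cells. Its highest values were in cKO, where 21 of 66 cells exceeded every one of the 23 control cells. With the 13 cells included, the highest control cell was at 5.44, and 10 of 69 cKO cells exceeded it. The mean was 1.09 higher in cKO (0.70 in batch 1, 1.57 in batch 2), and 1.19 higher with the 13 cells. The share of cells with any Gata5 was 73.9% (51.6 to 89.8) in control and 62.1% (49.3 to 73.8) in cKO, so the higher mean was not matched by more frequent detection. Cells at a TPM of at least 1 numbered 10 of 23 and 35 of 66, and their mean level was 2.63 ± 1.2 in control and 4.36 ± 1.59 in cKO. Gata5 thus differed in level among the cells that held it, and the direction was the same in batch 1 (2.92 against 4.03) and batch 2 (1.96 against 4.64, with 3 control cells).

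Gata6, which overlaps GATA4 in function in the embryonic myocardium, ranged from 0 to 5.02 with a median of 1.45 in control and from 0 to 6.94 with a median of 3.46 in cKO. The mean was 1.09 higher in cKO among the 89 cells, 1.02 in batch 1 and 0.42 in batch 2. With the 13 cells it was 1.39 higher (1.10 and 1.32). Both pooled values exceed those of their batches. Levels were higher in batch 2, which holds 6 of the 23 control but 33 of the 66 cKO cells. In the 89 cells the 2 within-batch differences averaged 0.72. At a TPM of at least 1 it was found in 56.5% of control cells (13 of 23, CI 34.5 to 76.8) and 71.2% of cKO cells (47 of 66, CI 58.7 to 81.7), intervals that overlap. By batch these were 8 of 17 against 21 of 33 cells (batch 1) and 5 of 6 against 26 of 33 (batch 2). Adding the TPM of the 3 GATA genes in each cell gave a log2(sum + 1) of 4.69 ± 2.14 in 23 control and 6.37 ± 1.54 in 66 cKO cells. The cKO sum exceeded that of control by 1.68 (1.65 and 1.36 in the batches), and by 2.23 (2.07 and 2.18) with the 13 cells, a smaller spread between batches than for any of the 3 genes alone. Gata4 made up 76.4% of all GATA TPM in control and 65.8% in cKO, Gata5 6.67% and 14.4%, and Gata6 16.9% and 19.8%.

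The FOG genes were low in CM-like cells of both genotypes. Zfpm1 (FOG-1), a partner of GATA1 in blood that also acts in the heart, was detected in 4 of 23 control cells, 17.4% (4.95 to 38.8), and 13 of 66 cKO cells, 19.7% (10.9 to 31.3). No control cell reached a TPM of 1, which allows a share of up to 13% at that level (3 of 23 cells, with an exact upper limit of 14.8%), while 8 of 66 cKO cells did, 12.1% (5.38 to 22.5), 6 of them in batch 1. Its mean was 0.35 higher in cKO (0.61 and 0.03 by batch), and 0.22 higher (0.40 and 0.07) with the 13 cells. Zfpm2 (FOG-2), the cofactor that GATA4 needs in the developing myocardium and coronary vessels, ranged from 0 to 4.65 in control and from 0 to 5.41 in cKO, with medians of 0 and 0.04. Any Zfpm2 was found in 10 of 23 cells in control, 43.5%, with an interval of 23.2 to 65.5, and in 33 of 66 in cKO, with an interval of 37.4 to 62.6. Its mean was 0.07 lower in cKO, and the batches had opposite signs, 0.49 in batch 1 and −1.23 in batch 2. With the 13 cells these were 0.17, 0.58 and −0.61. Of the FOG genes Zfpm1 was thus slightly higher in cKO in batch 1 and nearly equal in batch 2, and Zfpm2 differed in sign between the batches.

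**Figure D2:**
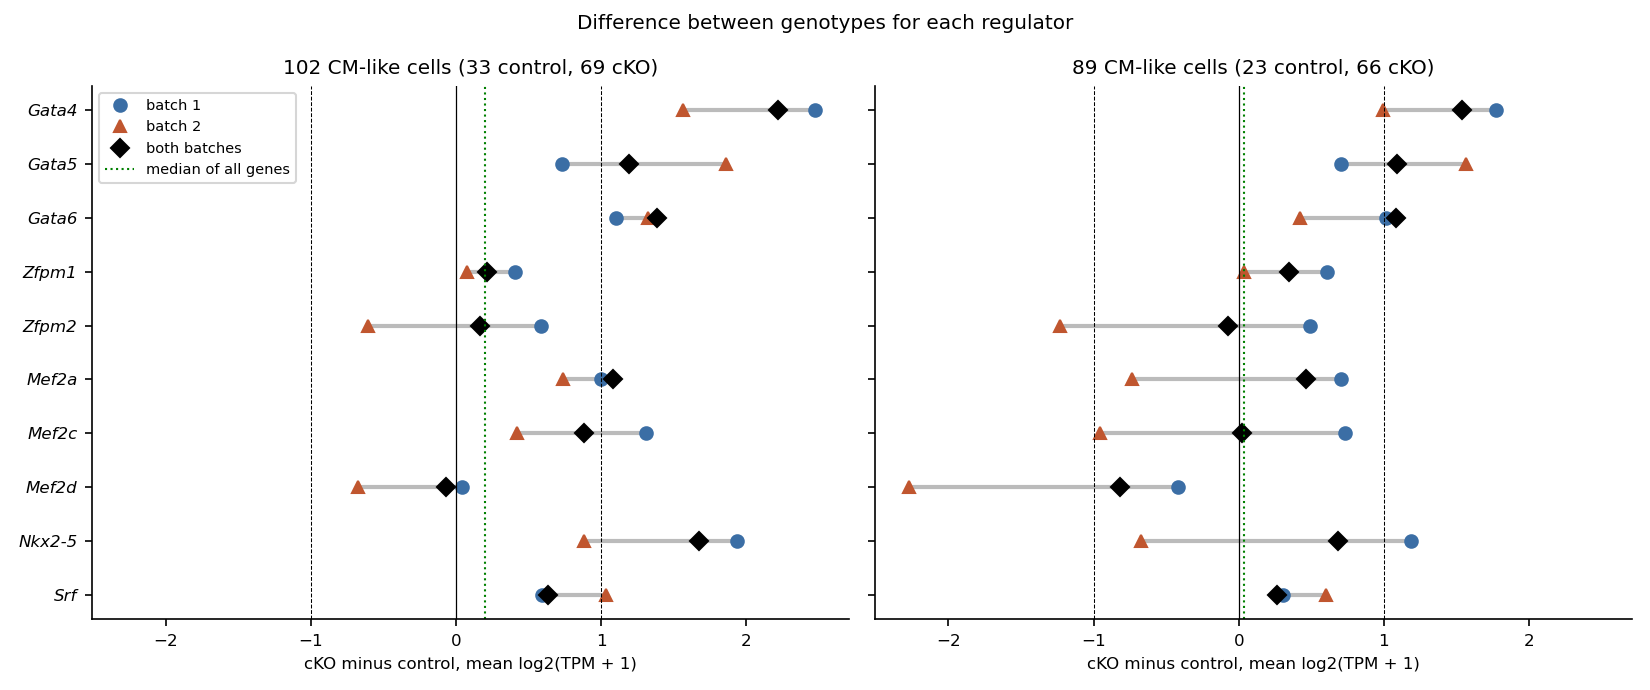
The horizontal axis is the mean log2(TPM + 1) of cKO minus that of control CM-like cells for each of the 10 regulators, with 102 cells on the left and 89 cells, without the 13 set apart, on the right. Black diamonds are both batches together, circles batch 1, triangles batch 2, dashed lines mark 1 log2 unit and the dotted line is the median of all genes. Gata4, Gata5 and Gata6 stay to the right of 0 in both batches of both panels, whereas Mef2a, Mef2c and Nkx2-5 have opposite signs in the 2 batches of the right panel.

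Among the MEF2 genes, Mef2c, the member whose loss stops heart looping and right ventricle formation, was the most abundant in CM-like cells. It ranged from 0.34 to 6.54 with a median of 5.22 in 23 control cells, all of which had it, and from 0 to 7.67 with a median of 5.33 in 66 cKO cells, of which 64 had it. The mean difference was 0.02 in the 89 cells, with 0.73 in batch 1 and −0.96 in batch 2. In the 102 cells it was 0.88 (1.31 and 0.42), so the sign in batch 2 turned with the 3 control cells and 1 cKO cell of that batch that were set apart. Mef2a had a median of 4.23 (0 to 6.41) in control and 4.68 (0 to 7.20) in cKO. Its mean was 0.47 higher in cKO in the 89 cells (0.70 and −0.74 by batch) and 1.08 higher in the 102 cells (1.00 and 0.74). It reached a TPM of 1 in 69.6% of control cells (16 of 23, CI 47.1 to 86.8) and 71.2% of cKO cells (47 of 66, CI 58.7 to 81.7).

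Mef2d was the member with the lowest difference. It had a median of 4.21 (0 to 6.88) in control and 2.13 (0 to 7.12) in cKO, and 18 of 23 and 47 of 66 cells had any. The mean was 0.82 lower in cKO in the 89 cells, with −0.42 in batch 1 and −2.27 in batch 2, and 0.07 lower in the 102 cells. In batch 2 the 6 control cells lay between 4.21 and 5.57, while 11 of 33 cKO cells were below a TPM of 1. The sum over Mef2a, Mef2c and Mef2d was 6.06 ± 1.41 in control and 6.21 ± 1.29 in cKO on the log2 scale, a difference of 0.15 that was 0.62 in batch 1 and −0.70 in batch 2. With the 13 cells this difference was 1.21, at 1.31 and 1.08 by batch, so its size and its sign in batch 2 rest on those cells. Mef2c held 45.4% of MEF2 TPM in control and 54.9% in cKO, and Mef2d 28.6% and 16.3%.

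The start of Mef2a is shown because it carries a MEF2 site. The set of RefSeq promoters searched here (250 bases before to 50 after the start site, build GRCm38.p6) held 7 of the 10 members. Absence from this set does not show that a gene has no promoter. The set held 9 promoters of members in all, since Mef2c has 3. The one of Mef2a is chr7:67372809-67373108, minus strand, written 5′ to 3′ with the MEF2 site in capitals.

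Mef2a: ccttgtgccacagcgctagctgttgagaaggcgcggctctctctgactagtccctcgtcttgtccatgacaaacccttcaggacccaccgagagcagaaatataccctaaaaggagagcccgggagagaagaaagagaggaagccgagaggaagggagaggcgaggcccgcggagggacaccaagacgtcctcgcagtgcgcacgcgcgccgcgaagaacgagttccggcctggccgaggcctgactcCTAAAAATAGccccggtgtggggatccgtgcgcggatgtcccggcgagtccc

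The site covers bases 249 to 258 and so spans the start site. A MEF2 site, searched on both strands, is present in 3.19% of the 32851 promoters of this length. The promoters of Mef2c, Mef2d, Gata5, Zfpm1, Nkx2-5 and Srf had no match to it. The match is a description of the letters and not evidence of binding.

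Nkx2-5, the homeobox factor that marks the cardiac lineage from the crescent on, was the highest member in both genotypes. It ranged from 0 to 7.93 with a median of 6.83 in 23 control cells and from 0 to 9.05 with a median of 7.03 in 66 cKO cells. It reached a TPM of 1 in 22 of 23 and 64 of 66 cells. Over the 89 cells the cKO mean exceeded control by 0.68, but by 1.19 in batch 1 and −0.67 in batch 2. The 6 control cells of batch 2 were all between 7.08 and 7.93, above the cKO mean of 6.82 in that batch, while the 17 control cells of batch 1 averaged 5.72 ± 2.07. With the 13 cells the difference was 1.68 (1.93 and 0.88), and 5 of the 10 control cells set apart had no Nkx2-5 detected.

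Srf had a median of 1.47 (0 to 5.70) in 23 control and 1.82 (0 to 5.87) in 66 cKO cells. It was detected in 73.9% (51.6 to 89.8) and 75.8% (63.6 to 85.5) of cells, and reached a TPM of 1 in 56.5% and 57.6%. The mean was 0.26 higher in cKO, 0.31 in batch 1 and 0.60 in batch 2, and 0.63 higher in the 102 cells. Of all genes tested, 69.8% lay below the difference of Srf in the 89 cells.

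The promoter of Srf is shown because SRF binds CArG boxes and its own promoter holds a pair of them. It is chr17:46556113-46556412, minus strand, 5′ to 3′ with the boxes in capitals.

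Srf: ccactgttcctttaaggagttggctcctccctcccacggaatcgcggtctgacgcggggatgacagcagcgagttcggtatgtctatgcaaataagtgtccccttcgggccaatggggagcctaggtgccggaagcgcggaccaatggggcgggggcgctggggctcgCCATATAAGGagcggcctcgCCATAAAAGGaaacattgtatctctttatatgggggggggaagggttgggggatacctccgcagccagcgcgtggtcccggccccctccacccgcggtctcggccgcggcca

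The boxes cover bases 169 to 178 and 189 to 198, starting 82 and 62 bases before the start site. A CArG box is present in 1.63% of all 32851 promoters and in none of the other 8 promoters of members. The GATA motif WGATAR, present in 29.8% of promoters on either strand, and the NKX2-5 motif TNAAGTG, present in 11.5%, had no match in any of the 9, which says only that these letters are not in these windows.

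Of the 15194 genes with TPM above 0 in more than 10 CM-like cells, 13% were at least 1 log2 unit higher in cKO with the same sign in both batches, among the 102 cells. By this rule 5 of the 10 members were higher (Gata4, Gata5, Gata6, Mef2a and Nkx2-5). None was lower, where 2.01% of all genes were. Among the 89 cells 5.49% of genes were higher and 7.71% lower, and 3 members were higher (Gata4, Gata5 and Gata6) and none lower. Some members crossed the threshold when the 2 within-batch differences were averaged instead. Gata6 was then at 0.72 and Mef2d at −1.34 in the 89 cells, and Mef2a at 0.87 in the 102 cells. The median difference of the members was 0.98 beside 0.20 for all genes in the 102 cells, and 0.41 beside 0.04 in the 89 cells, where it was 0.70 in batch 1 and −0.32 in batch 2 (all genes 0.15 and −0.29). Gata4 lay above 97.7% of genes in the 89 cells, Gata5 and Gata6 above 94.5% each, and Mef2d above 11.1%. When log2 values were centred on the median of the detected genes of each cell, the median of all genes moved by −0.87, and 395 genes were then higher and 2990 lower, against 1981 and 306 without centring. Centring takes 1 value per cell from every gene, so each difference moved by the same −0.87. Gata4 was then at 1.35, Gata5 at 0.32, Gata6 at 0.51 and Nkx2-5 at 0.80. Srf (−0.24), Zfpm1 (−0.66) and Zfpm2 (−0.71) changed sign. Which members fell below 0 follows from the size of the uncentred difference, so the signs are no separate check of single members.

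Detection of the members followed the number of genes found in a cell. CM-like control cells of the 23 had a median of 7 of the 10 members (4 to 9), and cKO cells of the 66 had 8 (4 to 10). The 10 control cells set apart had 5 (0 to 9). Across the 33 control CM-like cells the number of members detected correlated with the number of genes detected with a Pearson's r of 0.78, and across the 69 cKO cells with 0.54, points that share genotype and batch. In batch 2 the cKO cells had fewer genes than the control cells (medians of 7786 and 9704 in the 89 cells), whereas in batch 1 they had more (9845 and 8496). The sign of the batch differs in the same way for Mef2a, Mef2c, Nkx2-5 and Zfpm2, and the part of sampling depth in it was not tested. Gata4, Gata5 and Gata6 were higher in cKO in both batches of the 89 cells. In batch 2 they were higher by 0.99, 1.57 and 0.42, against 6 control cells. The part of depth in these differences was not tested either.

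**Figure D3:**
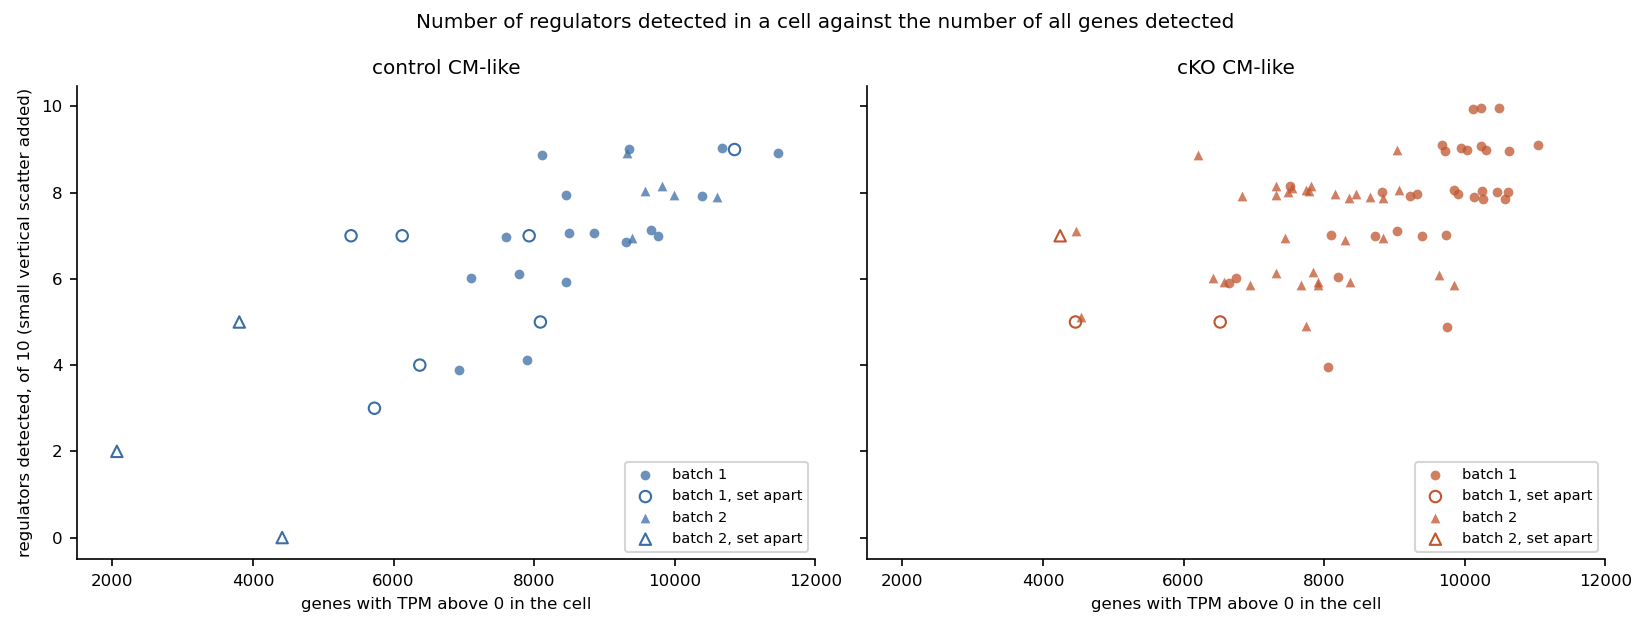
The number of the 10 regulators with TPM above 0 in a cell (vertical axis) is plotted against the number of all genes with TPM above 0 (horizontal axis) for 33 control and 69 cKO CM-like cells. Circles are batch 1, triangles batch 2 and open symbols the cells set apart. More regulators are found in cells with more genes, and control cells set apart mostly lie at the lower left.

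Gata4, Nkx2-5 and Mef2c were found together in 21 of 23 control cells, 91.3%, and 60 of 66 cKO cells, 90.9%. In the set of 102 cells these shares were 75.8% and 91.3%. All 3 GATA genes were found together in 13 of 23 and 35 of 66 cells, and both FOG genes in 2 of 23 and 8 of 66. Correlations between levels of the members were mostly low within a genotype. Several members were undetected in many cells, so these values cannot show that the levels are independent. Over the 45 pairs, Pearson's r ran from −0.55 to 0.53 with a median of 0.12 in the 23 control cells and from −0.26 to 0.41 with a median of 0.05 in the 66 cKO cells. With the 13 cells the medians were 0.27 and 0.08. The highest pair in control was Gata4 with Mef2c (0.53, and 0.08 in cKO). The lowest was Gata5 with Srf (−0.55), which was also the lowest in cKO (−0.26).

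The 10 regulators differed in how far they separated control CM-like cells from the 41 other control cells. Nkx2-5 was 5.10 higher in the 23 CM-like cells (6.18 against 1.09), with 4.83 in batch 1 and 6.34 in batch 2. It reached a TPM of 1 in 4 of 22 endothelial-like cells and 1 of 13 cells of the epicardial and mesenchymal cluster, and detected at any level in 40.9% and 53.8% of them, at similar medians of detected genes (9316 in CM-like, 9304 in endothelial-like). It also reached a TPM of 1 in 2 of 5 erythroid-like cells, which averaged 7.20, and in the cell that clustered alone, at 4.15. Mef2c was 1.65 higher in CM-like cells (1.05 and 2.23 by batch). Mef2a was 1.38 lower (−1.37 and −0.09), as it was highest in endothelial-like cells, where it averaged 5.32 ± 1.59 and reached a TPM of 1 in 21 of 22. Zfpm1 was 1.07 lower in CM-like cells (−1.23 and −0.95). Among the endothelial-like cells it was detected in 14 of 22, 63.6% (40.7 to 82.8), against 17.4% in CM-like cells.

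Gata4 did not mark CM-like cells among the control cells. Its mean of 3.90 ± 2.49 there compared with 3.00 ± 2.70 in endothelial-like cells and 5.99 ± 0.91 in the epicardial and mesenchymal cluster, where all 13 cells had it and the lowest was at 4.00. CM-like cells were 2.09 below that cluster (−1.85 in batch 1 and −1.80 in batch 2). Gata6 was likewise at 2.74 ± 1.95 and 2.95 ± 1.90 in those 2 clusters, against 2.08 ± 1.95 in CM-like cells. Gata5 was at 1.57 ± 1.89 in endothelial-like and 1.24 ± 1.47 in CM-like cells, a gap below the SDs. The cKO mean of Gata4 in CM-like cells, 5.44, lay between the control CM-like mean and that of the epicardial and mesenchymal cluster. Markers of that cluster were not detected broadly in these cells. The epicardial and mesenchymal markers were among those used for clustering, however. Their low detection therefore partly follows from how CM-like cells were chosen, and it cannot show whether such cells are absent. Of 6 epicardial markers 1 reached a TPM of 1 in the median CM-like cell of each genotype, Msln was at 0 in all, and their summed TPM ran from 0.48 to 132.2 (median 24.4) in control and from 0 to 355.0 (median 31.7) in cKO. Of 14 mesenchymal markers the median cell had 2 in each genotype, with sums of 7.11 to 347.7 (median 169.2) and 5.62 to 2093 (median 362.3) and Lum at 0 in all cells of both (Postn also in cKO). The part of such cells in the level of Gata4 was not tested.

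**Figure D4:**
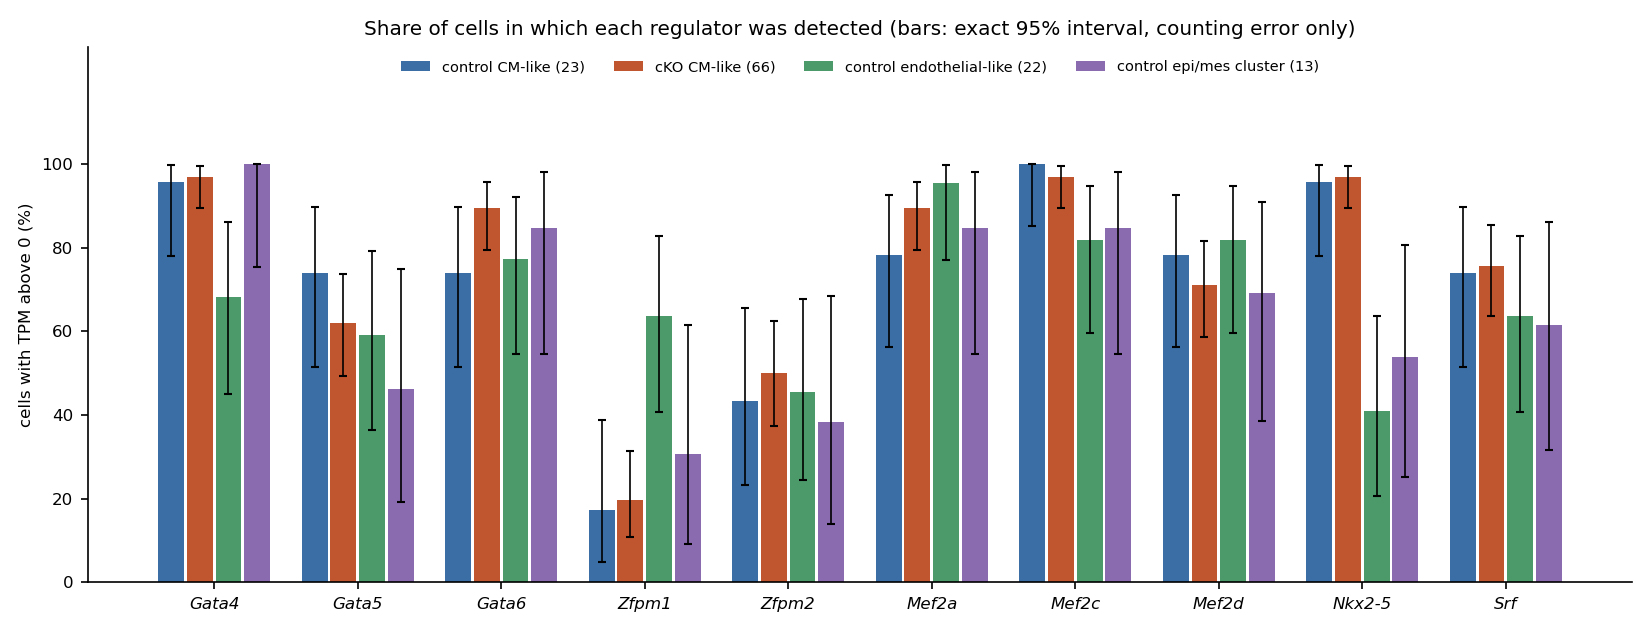
The vertical axis is the share of cells (%) with TPM above 0 of each regulator in 23 control and 66 cKO CM-like cells (without the 13 set apart), 22 control endothelial-like cells and 13 control cells of the epicardial and mesenchymal cluster, with exact 95% intervals for counting error. Nkx2-5 is detected in most CM-like cells and in fewer of the others, Zfpm1 is detected most often in endothelial-like cells, and the intervals of control and cKO CM-like cells overlap for all 10 regulators.

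Over all 14517 genes with TPM above 0 in more than 10 control cells, 7.03% were at least 1 log2 unit higher in the 23 CM-like cells than in the other 41, and 2 members were (Mef2c and Nkx2-5). Lower were 14.9% of genes and 2 members (Zfpm1 and Mef2a). The same sign in both batches was not asked for here. The CM-like cells divide 17 and 6 between batches 1 and 2, and the others 11 and 30. The within-batch differences averaged 1.64 for Mef2c, 5.58 for Nkx2-5, −1.09 for Zfpm1 and −0.73 for Mef2a. Mef2a, at −1.37 in batch 1 and −0.09 in batch 2, was thus past the threshold only with the batches pooled and in batch 1. With all 33 CM-like cells 2.82% were higher, with Nkx2-5 the only member, and 27.8% lower, with Gata4, Gata6 and Mef2a. The call of Gata4 and Gata6 as lower in CM-like cells thus rests on the 10 cells set apart, and for Gata4 it was also a difference of −2.01 in batch 1 and −0.10 in batch 2. Cells of the clusters share their source and the clusters were drawn on marker genes, so these values describe the clusters.

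Members also differed between batches within a genotype. In the 23 control cells batch 2 exceeded batch 1 by 2.19 for Mef2d, 2.02 for Mef2a, 1.77 for Nkx2-5 and 1.54 for Gata6, with a median size over the members of 1.03. In the 66 cKO cells the median size was 0.49, the largest value was −1.13 for Mef2c, and Gata4 moved by −0.14. Control cells of batch 2 number 6 here, and the labels do not say whether the batches are separate embryos.

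Genes that work with these regulators, or are known as their targets, were followed in lists chosen by name, with earlier results of these data known. The 21 contractile and adhesion targets of SRF had a median difference of 2.19 in the 102 cells and 0.88 in the 89 cells (all genes 0.20 and 0.04). Of them, 16 were at least 1 log2 unit higher with the same sign in both batches, and 10 in the 89 cells, beside 13% and 5.49% of all genes, and none was lower. Tpm2, a tropomyosin, was 4.30 higher in the 89 cells (4.23 and 3.48 by batch), and Cald1, the actin-binding caldesmon, 3.99 higher (3.75 and 4.06). Mylk, the myosin light chain kinase of smooth muscle, differed by 0.12, and smoothelin (Smtn) was 0.88 lower (−0.82 and −1.23). Srf itself differed by 0.26 in the same cells. Of the 17 targets with a RefSeq promoter 6 held a CArG box, 35.3% beside 1.81% of all genes with a promoter. The genes were listed as known targets of SRF, so this share describes the list and is not a result about these cells.

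The 11 cofactors of SRF had a median of 0.83 in the 102 cells, with 4 higher by the same rule, and −0.06 in the 89 cells, with 3 higher, and none was lower in either. Myocd, which encodes the muscle coactivator myocardin, was 1.63 higher in cKO among the 89 cells (1.75 in batch 1, 1.24 in batch 2), at 6.23 in control and 7.85 in cKO. Csrp1, a LIM protein that joins SRF and GATA factors in smooth muscle, was 1.66 higher (1.48 and 1.34). The ETS cofactors Elk3 and Elk1, which pair with SRF at growth factor genes, were 0.19 and 0.38 lower. The 7 immediate early targets of SRF that passed the filter had medians of −0.25 and −0.38. Fos was 0.95 higher in the 89 cells, but −0.68 in batch 1 and 3.25 in batch 2, and Fosb 0.87 higher (−0.13 and 1.51), while Junb was 1.30 lower (−0.97 and −3.07) and Egr2 0.38 lower. The sign of Fos and Fosb was not the same in both batches.

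**Figure D5:**
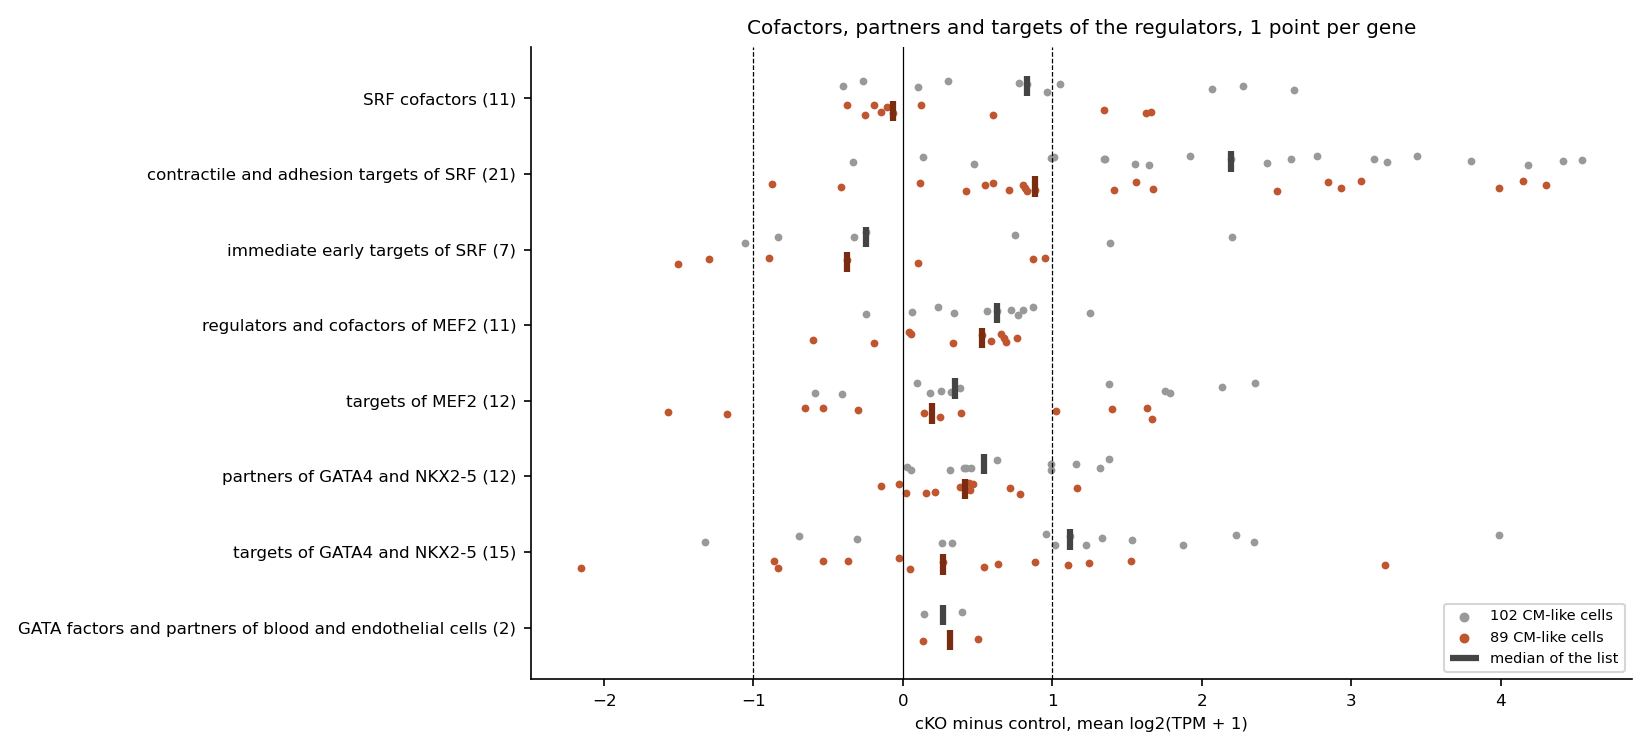
Each point is 1 gene of a list that passed the filter (numbers in brackets) and the horizontal axis is the mean log2(TPM + 1) of cKO minus control CM-like cells, in 102 cells (grey) and 89 cells (orange). Thick bars are list medians and dashed lines mark 1 log2 unit. The contractile and adhesion targets of SRF lie mostly to the right, at medians of 2.19 and 0.88, while regulators of MEF2 and partners of GATA4 and NKX2-5 lie mostly within 1 unit of 0.

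For MEF2, the 11 regulators and cofactors that passed had medians of 0.63 and 0.53, and none differed by 1 log2 unit with 1 sign in both batches. Carm1, a coactivating arginine methyltransferase, was 0.59 higher (1.06 and −0.38 by batch) and Hdac7, a repressing deacetylase, 0.76 higher (1.15 and 0.01), while Mamstr differed by 0.05 and Cabin1 by 0.34. The 12 targets of MEF2 had medians of 0.35 and 0.19, with 5 higher in the 102 cells and, in the 89 cells, 3 higher and 2 lower. Jun was 1.67 higher (1.15 and 1.42) and Klf6 1.40 higher (1.25 and −0.29). Tcap, the Z-disc protein telethonin, was 1.57 lower (−1.28 and −2.84) and Myom2 differed by 0.14. A MEF2 site was present in the promoters of 4 of 11 targets, 36.4% beside 3.70% of all genes, a share that again describes a list of known targets.

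The 12 partners of GATA4 and NKX2-5 had medians of 0.54 and 0.41, with 3 higher in the 102 cells and none in the 89 cells. Kdm6a, a histone demethylase encoded on the X chromosome, was 1.16 higher (1.61 and −0.15) and Tbx5, the T-box factor, 0.78 higher (0.27 and 0.10). Ezh2 differed by 0.02 and Isl1 by 0.38. The 15 targets of GATA4 and NKX2-5, of which 6 are also markers used for clustering, had medians of 1.12 and 0.27, with 8 higher and 1 lower in the 102 cells and 4 higher and 1 lower in the 89 cells. Ankrd1, a cardiac ankyrin repeat protein, was 3.23 higher (2.62 and 4.30) and Nppb, the B-type natriuretic peptide, 1.53 higher (0.90 and 1.64). Tnni3, the adult cardiac troponin I, was 2.16 lower (−2.20 and −2.06) and Gja5, connexin 40, 0.84 lower (−0.34 and −2.28). Targets of the same factors thus lay on both sides of 0. A GATA motif was present in 8 of 14 promoters of these targets, 57.1% beside 33% of all genes, and the NKX2-5 motif in 1 of 14, 7.14% beside 13.1%. These shares too describe a list of known targets. Of 8 GATA factors and partners of blood and endothelial cells 2 passed the filter, Ldb1 and Gata3, and Gata3 differed by 0.14.

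Across the 74 control cells, the 3 genes most like Nkx2-5 among 14517 were Trim55 (Pearson's r 0.90), Hspb7 (0.89) and Mybpc3 (0.87), all known from heart muscle. Those most like Mef2a were Mcl1 (0.73), Dnajb1 (0.70) and Vasp (0.68). For Mef2c they were Vti1b (0.66), Auh (0.62) and Ndufs6 (0.62), and for Gata4 Ift43 (0.64), Med19 (0.64) and Hmga2 (0.60). For the other 6 members the highest r was between 0.54 and 0.57. These cells share libraries of different depth and belong to several clusters, and the values are a description.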

How the data were processed

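Single cells from E9.5 ventricles were sequenced by Smart-seq2. The authors deposited 1 table of TPM, made with Salmon (version not given in the sources used here) on mm10 with the reporter genes added, after removing cells with low mapping or discordant reporter colour. Of 170 labelled samples 143 have a column. The other 27 were not analysed here. TPM keeps no read depth. Values were taken as log2(TPM + 1), the pseudocount being 1, so differences understate changes of low genes. Cells were clustered by Ward linkage on z-scored values of 55 markers (5 clusters, Python 3.11.15, SciPy 1.17.1), and a cluster needed 3 markers to be named. No doublet caller was run, as cells were picked by hand. Genes needed TPM above 0 in more than 10 cells, and were called at 1 log2 unit, between genotypes also with 1 sign in both batches. Since no embryo is named, each genotype is 1 sample and no test was run. Intervals of shares are exact binomial (95%) and cover counting error only. Beside a count of 0 the limit is 3 counts of the total. Steps were tested on simulated data. The members and lists were chosen with earlier results of these data known. From each list the 2 genes with the largest and the 2 with the smallest difference, among those with 1 sign in both batches of the 102 cells, were named, and for each member the 3 genes most like it were listed. Alternatives covered pseudocount, scaling, filters, clusters, depth and batch.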

Additional observations from a re-analysis of the deposited data

Results flagged for a closer look

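Some members had differences between cKO and control CM-like cells of opposite sign in the 2 sequencing batches, each at least 0.5 log2 units in size. In the 102 cells this was Zfpm2, at 0.58 in batch 1 and −0.61 in batch 2. In the 89 cells it was Mef2a at 0.70 and −0.74, Mef2c at 0.73 and −0.96, and Nkx2-5 at 1.19 and −0.67. The difference between batches was not tested, and the control side of batch 2 rests on 6 of the 89 cells.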

How the results depend on the processing

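Of the 17 alternatives, 15 were planned and 2 were chosen after seeing the data (cells with a mitochondrial share below 10%, and 6 clusters with the mean of both within-batch differences). Gata4 was at least 1 log2 unit higher in cKO under all 15 that apply to it (1.22 to 2.95). Gata5 (0.32 to 1.88), Gata6 (0.51 to 2.07) and Nkx2-5 (0.26 to 2.25) stayed above 0 in the same 15. The count of members higher in cKO is given with the share of all genes higher in brackets. It was 2 with a pseudocount of 10 (3.49%), in place of 5 (13%). It was 3 with the ratio of mean TPM (19.4%) and with 6 clusters (5.58%). It was also 3 with 6000 to 12000 detected genes (7.70%) and with a mitochondrial share below 10% (5.91%). It was 1 with clusters from variable genes (5.23%) or centred values (2.60%). With 6 clusters and the mean of batches it was 2 (4.90%), with 1 lower (all genes 1592 of 14937), and Mef2a was at −0.016. The median of the members was 0.41 with 6 clusters, 0.29 with their mean of batches, 0.37 with variable genes and 0.11 when centred.

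The median of contractile SRF targets was 1.66 with the ratio of means, 0.88 with 6 clusters, 0.90 with their mean of batches, 0.98 with variable genes, 1.32 when centred and 1.34 below 10% mitochondrial share. In the last 5 settings SRF cofactors were at −0.063, 0.067, 0.15, −0.042 and 0.27, and targets of GATA4 and NKX2-5 at 0.27, 0.22, 0.30, 0.24 and 0.38 (0.51 with 6000 to 12000 genes). Centring moves all genes of a comparison by the same amount. It put immediate early genes at −1.12, MEF2 regulators at −0.24 and MEF2 targets at −0.52. Partners of GATA4 and NKX2-5 were then at −0.33 (1.05 with a pseudocount of 0.1) and blood GATA factors at −0.60 (0.85 with the ratio of means). Immediate early genes were at 0.54 in batch 2.

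Between control CM-like and other control cells, members higher numbered 2 with a pseudocount of 0.1, 6 clusters, variable genes, 6000 to 12000 genes or low mitochondrial share, 5 when centred and 3 with 6 clusters and the mean of batches, in place of 1. Members lower numbered 1 with a pseudocount of 10, 6000 to 12000 genes, batch 2 or low mitochondrial share, and 0 with 6 clusters, with their mean of batches, with variable genes or when centred, in place of 3. With a pseudocount of 0.1 they numbered 4. The share of all genes past the threshold was not computed for this comparison in these settings, so the counts have no background. The median of the members was 0.35 with 6 clusters, 0.56 with 6 clusters and the mean of batches, 0.59 with variable genes and 1.03 when centred. Gata4 turned to 0.47, 0.70, 0.85 and 0.41 in these 4 settings. Gata6 turned to 0.19 with 6 clusters and the mean of batches and to 0.36 when centred. Mef2a turned to 0.074 with 6 clusters and the mean of batches. With 5 clusters the mean of batches left Gata4, Gata6 and Mef2a at −1.05, −0.83 and −1.74. With 6 clusters the cells set apart count among the other control cells. The cause was not tested. No paired analysis was possible because the labels name no embryo and the results come from no test, and for the same reason no replicate could be left out.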
